A study of Mus musculus with 4 samples.

Results

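Glycolysis genes and genes induced by low oxygen were followed in tumour-bearing eyes of splenectomized and intact mice. The list held 39 genes, 24 of glucose uptake, glycolysis and lactate handling and 15 of the hypoxia response. They were chosen by name with earlier results of these data known, so their counts are described and not tested. Each gene was read from 1 probe set, the brightest of those naming that gene alone and detected (called Present) on 2 or more of the 4 arrays. That left 35 members, 21 and 14 of either kind, among 13148 genes tested of 18193 named. Gpi1 and Eno1 had no probe set with that symbol alone in the annotation used here, Bnip3l had 3 that it shared with a pseudogene, and Gapdh had 3 control probe sets and 3 shared with other symbols. These 4 genes were not tested.

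Glycolysis splits glucose into pyruvate in the cytosol and needs no oxygen, and lactate dehydrogenase turns the pyruvate into lactate, which leaves the cell through monocarboxylate transporters. When oxygen is low, the subunit HIF-1 alpha, encoded by Hif1a, escapes hydroxylation by the prolyl hydroxylases of the Egln family and switches on genes of glucose use, blood vessel growth and collagen maturation. Photoreceptors, dividing lymphoma cells and activated macrophages all make heavy use of glycolysis, so in a whole eye with a tumour these transcripts come from many kinds of cell. For the same reason, fewer cells of a type and less RNA per cell cannot be told apart in these arrays.

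The arrays held total RNA of whole eyes from C57BL/6 mice of both sexes, older than 7 weeks, taken 15 days after 10000 luciferase-expressing E.G7-OVA cells, a mouse T lymphoma line carrying chicken ovalbumin, were placed in the anterior chamber. All mice received the tumour cells. There were 2 intact mice with no surgery and 2 splenectomized mice, whose spleen was removed before the injection. The labels name a mouse for each array and say nothing of pooled eyes or of the days of handling, so the p-values measure the spread between these samples only.

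Signals are the authors' linear intensities, scaled so that every array has the same trimmed mean. The arrays were called Present for 53.2% to 58.6% of probe sets, and the number of arrays limits every value. Intact replicate 1 stood apart. Its summed signal over 7 photoreceptor markers was 2383, against 10673 in intact replicate 2 and 9338 and 5959.5 in splenectomized replicates 1 and 2, and Pde6a and Prph2, picked out after their values were seen, were Absent on it alone. Over 8 lens markers it had 13299, against 31268, 32414 and 27479. Over 7 cell division markers it had 12349.7, against 8547, 6841 and 7752. All 6 T cell markers measured, which the lymphoma can also make, were Present on all 4 arrays. The Y-linked gene Eif2s3y was Present on all 4 as well, at 137.5 and 208.7 in intact and 299.5 and 273.9 in splenectomized mice. The X-linked gene Xist was dim, at 6.3 and 21.3 against 21.2 and 14.8, and Absent on intact replicate 1. The labels do not give the sex of each mouse.

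The comparison of splenectomized with intact mice was read in limma, fitted over all 13148 genes. No member passed an adjusted p of 0.05, and neither did any other gene (0 genes, 0.00%, with a smallest adjusted p of 0.158). At an unadjusted p under 0.05 there were 1180 genes, or 8.97%, and 3 of the 35 members, Slc2a1, Hif1a and Bnip3, all higher in splenectomized mice. Of all genes, 6.66% were higher and 2.31% lower at that level. The description below therefore rests on the signal on each array and on whether the groups overlap, meaning that both splenectomized signals lie above, or both below, both intact signals.

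The hypoxia members, chosen with earlier results of these data known, were mostly higher in splenectomized mice. Of the 14 tested, 10 were higher with no overlap (71.4%), where 21.7% of all genes were, and 1 was lower with no overlap, where 19.7% of all genes were. Their median log2 fold change was 0.35, beside 0.05 for all genes. Over both kinds, 17 of 35 members did not overlap in either direction, against 41.4% of all genes, and 26 of 35 had a log2 fold change above 0, against 55.1%. The 21 glycolysis members had a median of 0.15, with 5 higher and 1 lower without overlap (23.8% and 4.76%), so their share of higher genes was close to that of all genes. When arrays were centred on the median of probe sets Present on all 4, 1 glycolysis member rather than 5 was higher without overlap. With that centring, 20.1% of all genes were.

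**Figure D1:**
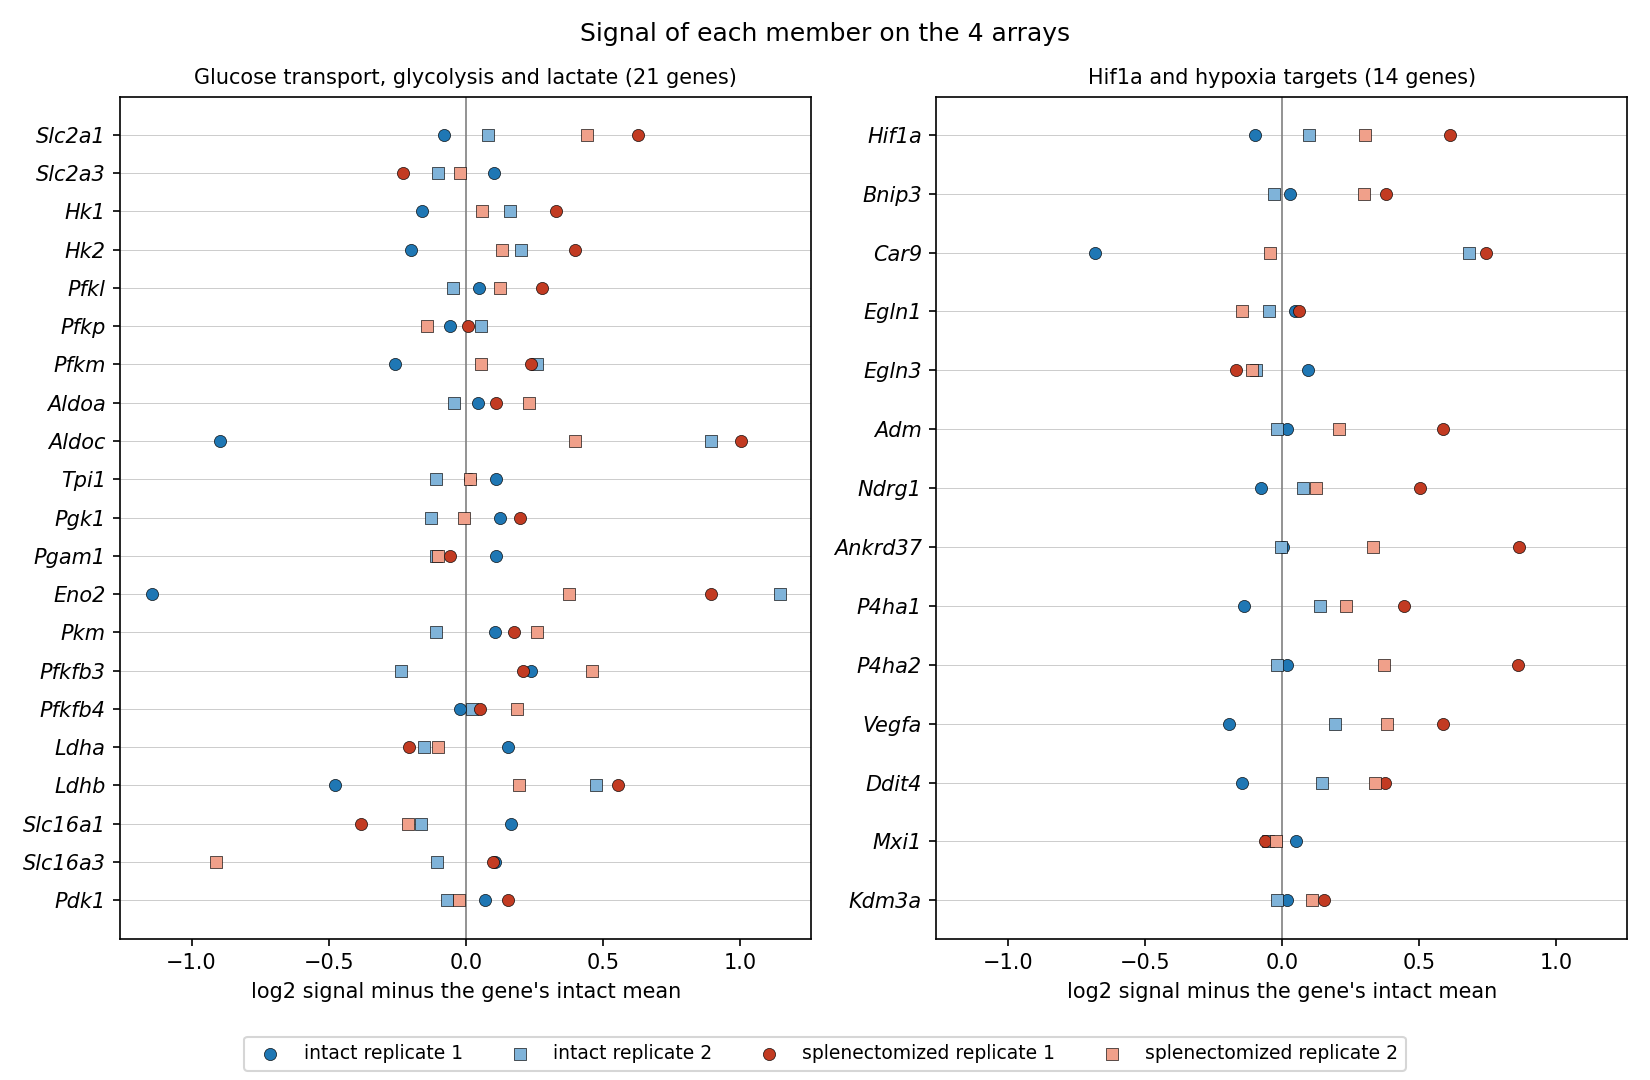
Signal of the 35 tested members on each array, as log2 signal minus the mean of the 2 intact arrays, with intact arrays in blue and splenectomized arrays in red (circles, replicate 1, and squares, replicate 2). In the right panel the red points of 10 of the 14 hypoxia members lie to the right of both blue points, while in the left panel this holds for 5 of 21.

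Hif1a encodes the oxygen-regulated subunit of the hypoxia factor itself. Its signal was 2276 and 2615 on the intact arrays and 3731 and 3006 on the splenectomized arrays. All splenectomized values lay above the intact values, with a log2 fold change of 0.46 ± 0.17 (SE of limma, n = 2 each) and an adjusted p of 0.542 in limma. The other detected probe sets of Hif1a had log2 fold changes of 0.48 and 0.37, also without overlap, and 1 more probe set was Absent on all arrays. The probe set with 0.37 was dim, at 15.7 and 25.9 against 26.1 and 26.1. It was barely separate, and its difference came from intact replicate 1. Oxygen is known to act mainly on the stability of the protein, which arrays do not measure.

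Slc2a1, which encodes the widely expressed glucose transporter GLUT1 and is itself a HIF target, was the member with the smallest p. It measured 1606 and 1796 in intact and 2626 and 2307 in splenectomized mice, a log2 fold change of 0.54 ± 0.14 (unadjusted p = 0.0135, adjusted p = 0.437 in limma). The groups did not overlap, and the same held for all 3 of its detected probe sets, at 0.39 to 0.54. The gene lies at chr4:119108745-119137330 of GRCm38.p6.

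Bnip3, a mitochondrial protein that promotes mitophagy under low oxygen, had signals of 1114 and 1069 in intact and 1419 and 1343 in splenectomized mice. The groups lay clear of each other, and its log2 fold change was 0.34 ± 0.12 (unadjusted p = 0.0382, adjusted p = 0.527 in limma). The collagen prolyl 4-hydroxylase subunit gene P4ha2, needed for stable collagen, was at 59.8 and 58.3 in intact and 107 and 76.4 in splenectomized mice, with a log2 fold change of 0.62 ± 0.27. The related subunit gene P4ha1 was at 269 and 325 against 403 and 348. For both genes the groups were separate and splenectomized replicate 1 was highest. A second, dim probe set of P4ha1 overlapped.

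The 250 bases before the start of these genes are shown because the hypoxia factor is known to bind the letters ACGTG or GCGTG, and the genes that were higher can be set beside members that were not. Egln3 and Slc16a1 were the members with both splenectomized signals below both intact signals. Sequences are from RefSeq on GRCm38.p6, 5′ to 3′ on the gene's strand, and capitals mark these letters read on either strand, where matches can overlap.
Slc2a1, chr4:119108495-119108744, + strand: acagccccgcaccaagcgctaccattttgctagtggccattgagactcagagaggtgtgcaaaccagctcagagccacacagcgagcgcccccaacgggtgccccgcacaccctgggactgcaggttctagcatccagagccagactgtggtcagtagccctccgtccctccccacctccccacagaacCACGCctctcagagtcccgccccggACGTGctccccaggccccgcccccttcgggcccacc
Bnip3, chr7:138909507-138909756, - strand: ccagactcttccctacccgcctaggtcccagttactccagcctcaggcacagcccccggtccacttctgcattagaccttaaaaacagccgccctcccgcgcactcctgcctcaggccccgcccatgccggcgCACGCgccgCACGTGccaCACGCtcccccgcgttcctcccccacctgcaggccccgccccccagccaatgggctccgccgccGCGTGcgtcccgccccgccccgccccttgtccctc
P4ha2, chr11:54100674-54100923, + strand: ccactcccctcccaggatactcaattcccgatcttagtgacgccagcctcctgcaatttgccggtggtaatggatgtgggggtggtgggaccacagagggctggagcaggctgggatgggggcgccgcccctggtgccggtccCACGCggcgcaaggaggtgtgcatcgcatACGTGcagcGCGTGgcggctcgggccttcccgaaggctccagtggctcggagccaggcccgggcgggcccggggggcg
Egln3, chr12:54203875-54204124, - strand: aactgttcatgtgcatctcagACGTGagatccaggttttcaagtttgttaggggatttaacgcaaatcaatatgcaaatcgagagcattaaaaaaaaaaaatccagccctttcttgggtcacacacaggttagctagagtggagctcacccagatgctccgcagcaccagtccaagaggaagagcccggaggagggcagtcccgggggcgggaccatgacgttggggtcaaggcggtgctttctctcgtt
Slc16a1, chr3:104638414-104638663, + strand: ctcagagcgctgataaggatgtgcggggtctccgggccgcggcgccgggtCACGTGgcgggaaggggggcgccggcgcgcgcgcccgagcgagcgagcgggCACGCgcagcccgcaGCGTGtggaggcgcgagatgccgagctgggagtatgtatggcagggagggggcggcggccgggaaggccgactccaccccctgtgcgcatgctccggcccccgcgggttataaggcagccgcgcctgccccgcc
The letters stood at 2, 5 and 3 positions before Slc2a1, Bnip3 and P4ha2, and at 1 and 4 before Egln3 and Slc16a1. All the printed genes thus had them, whether higher or lower. Nearly all members did, as counted next, so the presence of the letters could hardly separate higher from lower members. Counting a gene when any of its listed starts had the letters in this window, 33 of 36 members in the promoter table did (91.7%), against 59.3% of the tested genes found there and 41.5% of all genes in it. By kind, it was 13 of 13 hypoxia members and 20 of 23 glycolysis members, or 18 of the 20 glycolysis members tested. A gene with more starts has more windows that can match. Counted by window, 77.8% had the letters for hypoxia members and 77.8% for glycolysis members, against 53.3% for all tested genes. These letters contain CG, and the windows of the hypoxia members held a median of 16.5 CG pairs, those of the glycolysis members 14 and those of all tested genes 14. A match is a description of the letters, not a binding site.

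Secreted products of the hypoxia response were also higher in splenectomized mice. Vegfa, the main growth factor of blood vessels, was at 125 and 164 in intact and 215 and 187 in splenectomized mice, with a log2 fold change of 0.48 ± 0.21 (adjusted p = 0.589 in limma). A second probe set of Vegfa was Absent on both intact arrays and Present on both splenectomized arrays, at 40 and 36.3 against 49.7 and 51.4. It met the detection rule only through the group where it was higher. Adm, which encodes the vasodilator adrenomedullin, was at 187 and 182.5 against 278 and 214. Each of the pair was higher without overlap, though a second Adm probe set, at 0.36, overlapped. Of 8 endothelial markers measured, 2 (Eng and Plvap) were higher without overlap (25%, near the 21.7% of all genes) and 6 overlapped, and the summed signal over the list was 1014 and 1147 in intact and 1436 and 1289 in splenectomized mice.

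Among the intracellular targets, Ankrd37, an ankyrin repeat protein strongly induced by hypoxia, was at 97.6 and 96.9 in intact and 177 and 122 in splenectomized mice, with a log2 fold change of 0.60 ± 0.25. Ddit4, which encodes the mTORC1 inhibitor REDD1, was at 1625 and 1986 against 2329.6 and 2269.9. Ndrg1, a stress-response gene, was at 1138 and 1265 against 1699 and 1307. Ndrg1 thus separated the groups by a small margin on splenectomized replicate 2, and the other 3 detected Ndrg1 probe sets overlapped, with log2 fold changes of 0.0047 to 0.16. Kdm3a, a histone demethylase induced by HIF, was at 613 and 598 against 674 and 653, a log2 fold change of 0.13 ± 0.12. That difference was the smallest of the 10.

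The hypoxia members did not all go this way. The prolyl hydroxylases, which mark HIF for degradation and are HIF targets themselves, were flat or lower. Egln3 was at 1471 and 1291 in intact and 1227 and 1278 in splenectomized mice, lower without overlap in both its probe sets (log2 fold changes of -0.14 and -0.26). Egln1 was at 609 and 571 against 615 and 533 with overlap, while its other, dimmer probe set was lower without overlap at -0.53. Mxi1, an antagonist of Myc, was at 495 and 460.1 against 457 and 469.7, within the spread of the arrays. Car9, a membrane carbonic anhydrase used as a hypoxia marker, was at 32 and 82.4 in intact and 86 and 49.8 in splenectomized mice. Its groups overlapped. The log2 fold change was 0.35 over all arrays, -0.33 with intact replicate 1 left out and -0.044 with splenectomized replicate 1 left out.

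Splenectomized replicate 1 had the highest signal of the 4 arrays for 12 of the 14 hypoxia members, or 85.7%, against 31.6% of all genes and 8 of 21 glycolysis members. Egln3 and Mxi1 were the exceptions, highest in intact replicate 1. Without splenectomized replicate 1 the median of the hypoxia members was 0.22, and without splenectomized replicate 2 it was 0.47. With splenectomized replicate 1 left out, the log2 fold change was 0.33 for Ankrd37, 0.37 for P4ha2, 0.30 for Hif1a, 0.21 for Adm and 0.12 for Ndrg1. With intact replicate 1 left out, it was 0.29 for Vegfa, 0.20 for P4ha1, 0.21 for Ddit4 and -0.044 for Egln3. Bnip3, Slc2a1 and Kdm3a depended less on any array, and their lowest values were 0.30, 0.44 and 0.11.

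**Figure D2:**
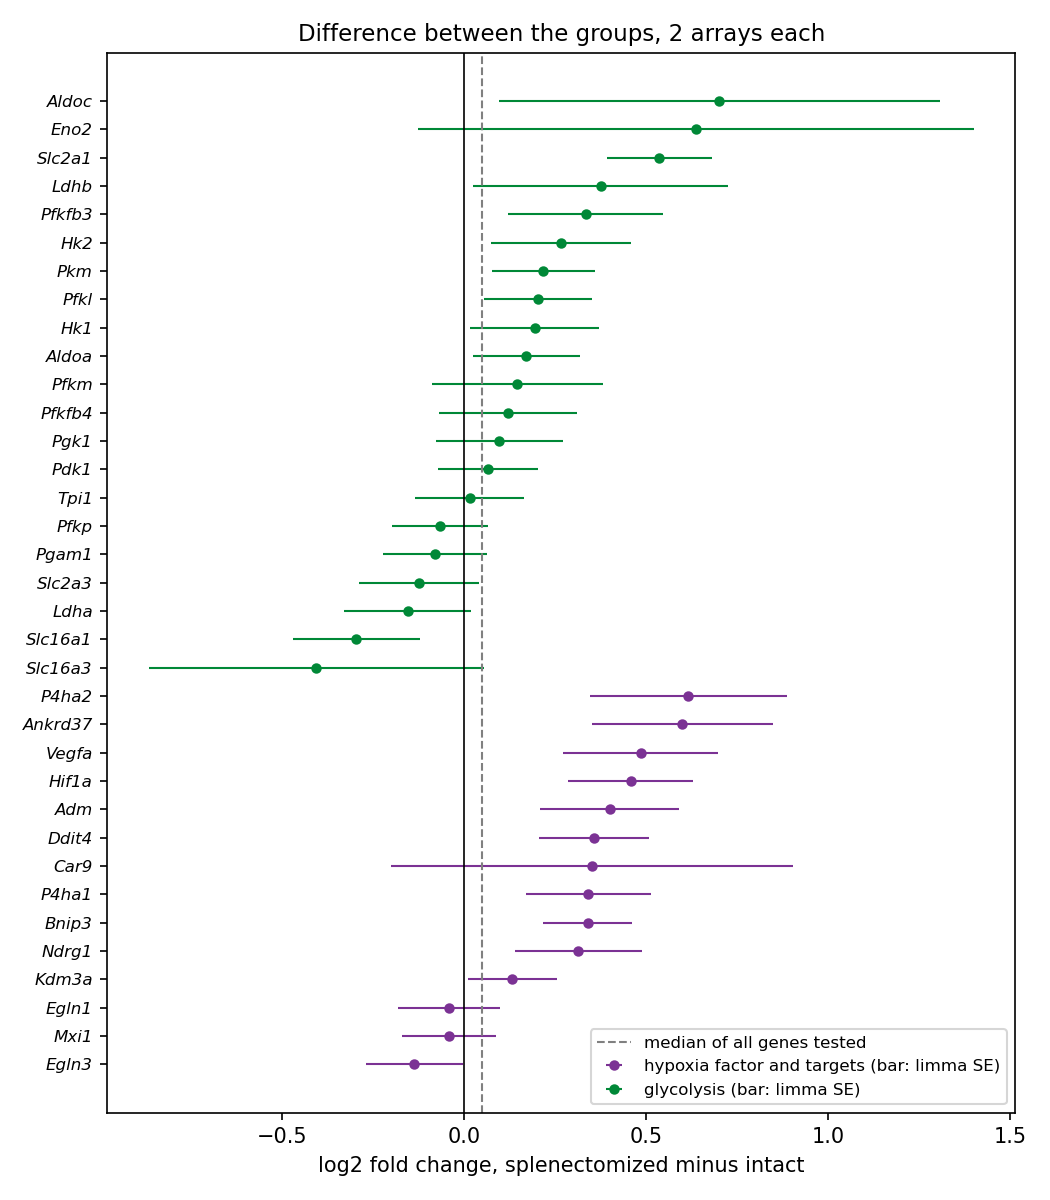
Log2 fold change of each tested member, splenectomized minus intact, with the standard error of limma as a bar and the median of all 13148 genes as a dashed line at 0.05. Hypoxia members (purple) lie mostly between 0.13 and 0.62, and glycolysis members (green) spread from -0.41 (Slc16a3) to 0.70 (Aldoc), with the widest bars for Aldoc, Eno2 and Car9.

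At the entry of glycolysis, the glucose transporter genes parted. Slc2a3, the high-affinity transporter GLUT3 of lymphocytes and neurons, was at 5735 and 4986 in intact and 4567 and 5267 in splenectomized mice, with overlap and a log2 fold change of -0.12 ± 0.16. A second bright Slc2a3 probe set had the same value and was lower without overlap. On each array, the log2 signal of Slc2a1 minus that of Slc2a3, relative to the mean of the 4, was -0.51 and -0.15 in intact and 0.53 and 0.13 in splenectomized mice. The difference of 0.66 is not altered by a scaling factor per array, and it was 0.46 to 0.86 when single arrays were left out. Among the 6 isoform pairs compared in this way, the groups were separate for Slc2a1 against Slc2a3 and for Hk2 against Hk1, where the difference was only 0.07.

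The hexokinase genes Hk1 and Hk2, whose products trap glucose in the cell, had like values. Hk1 was at 919 and 1148 against 1291 and 1068, and Hk2 at 694 and 915 against 1050.1 and 874. Their groups overlapped, with log2 fold changes of 0.19 ± 0.18 and 0.27 ± 0.19. Phosphofructokinase, the committed step, has 3 subunit genes: Pfkl was at 277 and 259 against 325 and 292 without overlap, as were its other 2 detected probe sets. Of these, 1 was barely separate, at 135.9 and 149 against 149.4 and 156.4. The other was dim, at 16.1 and 25.5 against 29.7 and 33. Pfkm, at 138 and 197 against 194.5 and 171, and Pfkp, at 1636 and 1769 against 1709 and 1543, overlapped. Pfkfb3 and Pfkfb4, which make the activator fructose 2,6-bisphosphate, had log2 fold changes of 0.33 ± 0.21 and 0.12 ± 0.19. Pfkfb4 was separate by a narrow margin, at 113 and 116 against 118 and 130.1, and Pfkfb3 overlapped, at 389 and 280.2 against 382 and 454.

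Lower down the pathway the abundant enzymes of Tpi1, Pgk1 and Pgam1 hardly differed, while those of Pkm and Aldoa had higher signals in splenectomized mice. Triose phosphate isomerase (Tpi1) was at 4355 and 3736 in intact and 4078 and 4071 in splenectomized mice, phosphoglycerate kinase (Pgk1) at 6433 and 5401 against 6760.2 and 5874, and phosphoglycerate mutase (Pgam1) at 3127 and 2685 against 2782 and 2698. All of these overlapped, with log2 fold changes of 0.01, 0.10 and -0.08 and SEs of 0.15, 0.17 and 0.14. Pgk1 is a HIF target. Pyruvate kinase (Pkm) was at 1837 and 1584 against 1925 and 2042, and aldolase A (Aldoa) at 5381 and 5065 against 5629 and 6126. Both were higher without overlap, with log2 fold changes of 0.22 ± 0.14 and 0.17 ± 0.15, and all 5 Aldoa probe sets were higher without overlap, at 0.17 to 0.34. They carry the suffix of probe sets that can cross-hybridize.

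The control probe sets of Gapdh, the glyceraldehyde phosphate dehydrogenase, were outside the fit. Its 3' probe set was at 7255 and 5533 in intact and 6114 and 6616.5 in splenectomized mice, a log2 fold change of 0.01. The middle probe set had 0.02, and the 5' probe set 0.13 without overlap. The 3'-to-5' ratio of Gapdh, which rises as RNA degrades, was 1.18 in intact replicate 1 and 0.982, 0.996 and 0.977 in the others, while that of beta-actin ran from 1.51 to 1.71 with no such gap. Its part in the low values of intact replicate 1 was not tested.

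At the lactate end, Ldha, Slc16a1 and Slc16a3 had lower mean signals in splenectomized mice, Pdk1 and Ldhb higher ones, and the groups were separate for Slc16a1 alone among these 5. Lactate dehydrogenase A (Ldha), a HIF target that favours lactate, was at 7239 and 5861 in intact and 5638 and 6065 in splenectomized mice, with overlap and a log2 fold change of -0.16 ± 0.17 (adjusted p = 0.772 in limma). Slc16a1, which encodes the lactate transporter MCT1, was at 4307 and 3433 against 2949.7 and 3323, lower without overlap, with a log2 fold change of -0.30 ± 0.17. A second Slc16a1 probe set was dim, at 4.6 to 19.7, and overlapped. Without intact replicate 1, the log2 fold changes of Ldha and Slc16a1 were -0.0032 and -0.13. The other transporter, MCT4 (Slc16a3), was dim, Present only on the replicate 1 arrays, and had 33.6 and 29 against 33.4 and 16.6. Pdk1, a HIF target that shuts pyruvate out of mitochondria, was at 994 and 903 against 1055 and 931, a log2 fold change of 0.06, and its other 2 detected probe sets had -0.15 and 0.14. Thus Slc2a1, Bnip3 and Vegfa were separate between the groups, while Ldha, Pgk1 and Pdk1, also HIF targets, overlapped.

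Beside the lactate genes, cell division markers were lower in splenectomized mice, 6 of 7 without overlap (85.7%, against 19.7% of all genes). Plk1, a mitotic kinase, was at 710.2 and 439.6 against 305 and 325. The summed T cell marker signal was 12346 and 8648 against 8588 and 9891. On these lists, as for Ldha, Slc16a1 and Egln3, intact replicate 1 was highest, and their part in those values was not tested.

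Isoforms known from neurons and retina behaved apart from the rest of the pathway. Aldolase C (Aldoc) was at 339.7 and 1174 in intact and 1265 and 833 in splenectomized mice. Neuronal enolase (Eno2) was at 38.8 and 189.8 against 159.6 and 112, and lactate dehydrogenase B (Ldhb), the form that favours pyruvate, at 167 and 323 against 341 and 265. For each of them intact replicate 1 was lowest by far and the groups overlapped, and all 4 Ldhb probe sets were lowest there. A second, dim Aldoc probe set, at 10.3 and 15.3 against 23.7 and 26.5, did not overlap. The log2 fold changes of 0.70 ± 0.61, 0.64 ± 0.76 and 0.37 ± 0.35 had the largest SEs among the members that are glycolytic enzymes or lactate dehydrogenases, and without intact replicate 1 they were -0.19, -0.51 and -0.10.

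Markers of the retina and lens were also lowest on intact replicate 1. The mean log2 signal of 7 photoreceptor markers, relative to the mean of the 4 arrays, was -1.57 and 0.96 in intact and 0.66 and -0.05 in splenectomized mice. That of 7 retinal neuron and glia markers was -1.31 and 0.72 against 0.68 and -0.09, and that of 8 lens markers -1.13 and 0.50 against 0.53 and 0.09. All markers of these lists overlapped between the groups, and Snap25, a synaptic protein, ran from 176 in intact replicate 1 to 1087 in splenectomized replicate 1. Car9 was lowest there too. Whether the retinal share of each eye set the values of Aldoc, Eno2, Ldhb and Car9 was not tested. Aldoa and Ldha, the paralogues in most other tissues, lacked the dip of intact replicate 1, and the log2 difference Ldha minus Ldhb, relative to the mean of the 4 arrays, ran from 0.89 on that array to -0.50 on splenectomized replicate 1.

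**Figure D3:**
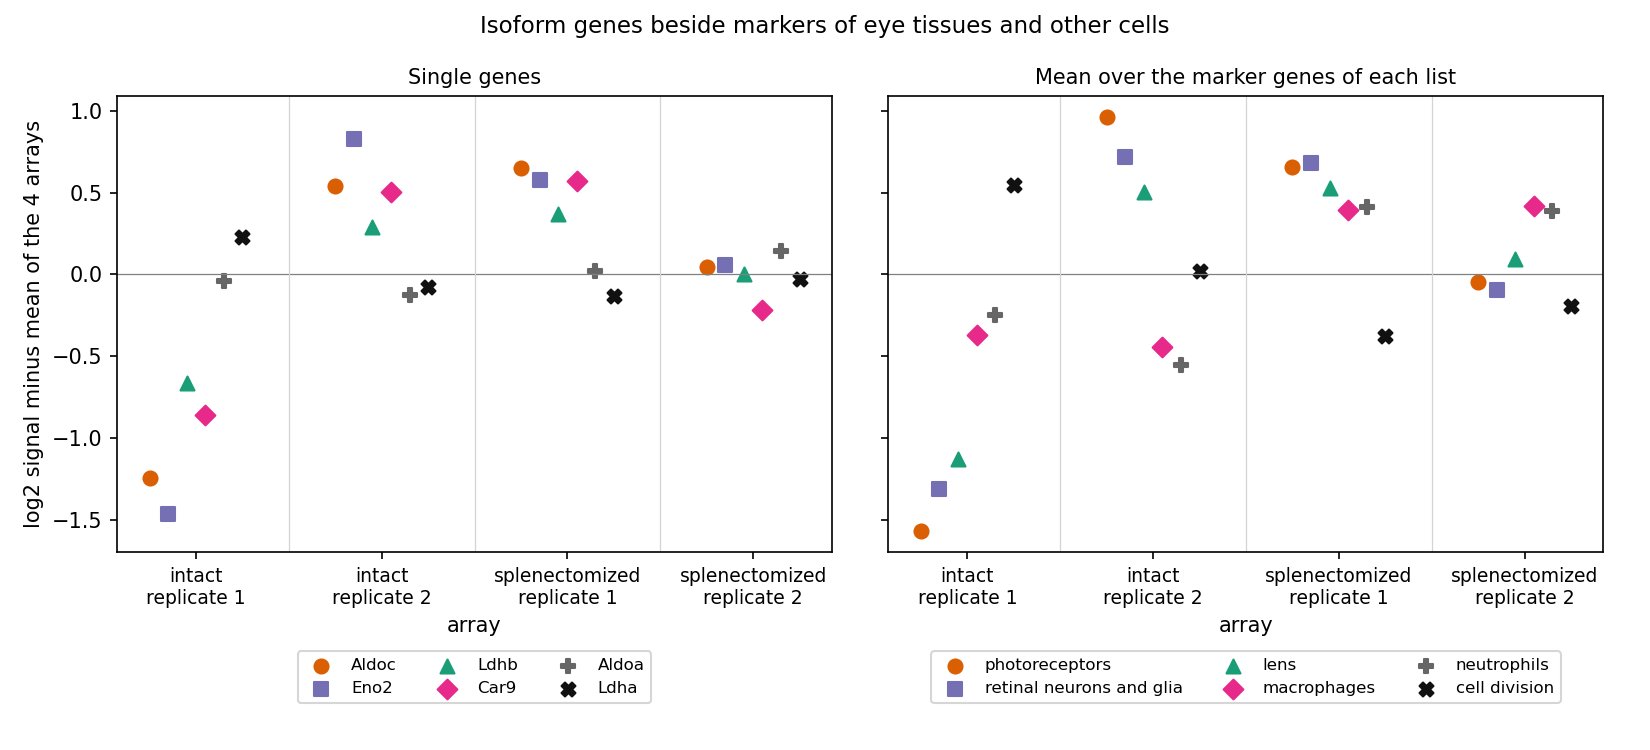
Log2 signal minus the mean of the 4 arrays for single genes (left) and for the mean over the markers of each list (right), 1 column of points per array. Aldoc, Eno2, Ldhb and Car9 lie lowest on intact replicate 1, as do the photoreceptor, retinal and lens lists, whereas the macrophage and neutrophil lists lie below 0 on both intact arrays and above 0 on both splenectomized arrays.

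Myeloid markers were higher in splenectomized mice too, and separated the groups. Of 8 macrophage markers 7 were higher without overlap (87.5%, against 21.7% of all genes). The summed signal of the list was 11075 and 9059.5 in intact and 16195 and 17170.5 in splenectomized mice. The phagocyte gene Mpeg1 had signals of 1292 and 1304 against 2699 and 2812. All 6 neutrophil markers measured were higher without overlap (100%, against the same 21.7%), with sums of 8794 and 6729 against 14361 and 13973. The splenectomized arrays were close to each other on these lists, with mean log2 signals, relative to the mean of the 4 arrays, of 0.40 and 0.42 for macrophages and 0.41 and 0.39 for neutrophils. Hk3, a hexokinase abundant in myeloid cells and read here from a probe set that can cross-hybridize, averaged 223 ± 3.89 over the intact arrays against 602 ± 61.6 over the splenectomized arrays (n = 2 each, with SD), a 2.69-fold difference in limma's fit over all genes (unadjusted p = 0.000178, adjusted p = 0.158 in limma). Fibroblast markers, among them collagens that the P4ha enzymes modify, were higher without overlap for 7 of 7 (100%, against 21.7% of all genes). The part of myeloid and stromal cells in the values of Hif1a, Slc2a1, Bnip3 and the P4ha genes was not tested.

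Other genes of the pathway were taken from lists by function, also with earlier results of these data known. Of 18 further genes known to be induced by hypoxia, 5 were higher without overlap (27.8%, near the 21.7% of all genes), 0 were lower without overlap, and the median log2 fold change was 0.08. The 5 were Hmox1, Hilpda, Tfrc, Lox and Bhlhe40. Heme oxygenase (Hmox1) was at 413.5 and 337 against 991 and 772, and Hilpda, a lipid droplet protein, had means of 226 ± 36.9 against 390.5 ± 43.7 (SD, n = 2 each). The other 13 genes of this list overlapped between the groups.

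The HIF subunits and their regulators had 2 of 8 higher (Hif3a and Arnt) and 1 lower (Hif1an) without overlap, shares of 25% and 12.5% beside 21.7% and 19.7% of all genes. Epas1, which encodes HIF-2 alpha, was at 505 and 1103 in intact and 1031 and 955 in splenectomized mice, with the low value of intact replicate 1. Hif3a was dim, at 4.7 and 6.2 with Absent calls in intact and 9 and 11.3 in splenectomized mice. It met the detection rule only through the splenectomized arrays, where it was higher, so its place in the count of higher genes carries no weight.

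Genes of pyruvate oxidation mostly had lower signals. Of 20 genes of pyruvate dehydrogenase and the citric acid cycle, 16 had lower signals in splenectomized mice, 7 of them without overlap (35%, against 19.7% of all genes). Another 2 were higher without overlap (10%, against 21.7% of all genes), and the median log2 fold change of the list was -0.12. The summed signal of the list was 38026 in intact replicate 1, against 31823 in intact replicate 2 and 31220.2 and 32380.4 in splenectomized mice, so the intact array that stood apart was high and the other lay within the splenectomized range. Dld, a subunit shared by pyruvate and oxoglutarate dehydrogenase, was at 864 and 709 against 524 and 539.9, a log2 fold change of -0.56 ± 0.15 (unadjusted p = 0.0136, adjusted p = 0.437 in limma). Idh3a, of isocitrate dehydrogenase, was at 2640.3 and 2120.3 against 1783 and 1865. The genes higher without overlap were Pdk4, a kinase that inhibits pyruvate dehydrogenase and was Absent on intact replicate 1, and Mpc1 of the mitochondrial pyruvate carrier. Pdk4 was dim, at 0.6 and 15.6 in intact and 18.5 and 21.5 in splenectomized mice. In the pentose phosphate pathway, which branches from glycolysis, Rpia and Rpe were lower and Pgd higher without overlap, among 6 measured. These were shares of 33.3% and 16.7%, beside 19.7% and 21.7% of all genes. The muscle enolase Eno3 was at 544 and 647 against 426 and 476, lower without overlap. Of 8 skeletal muscle markers, 1 was lower without overlap (12.5%, against 19.7% of all genes).

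**Figure D4:**
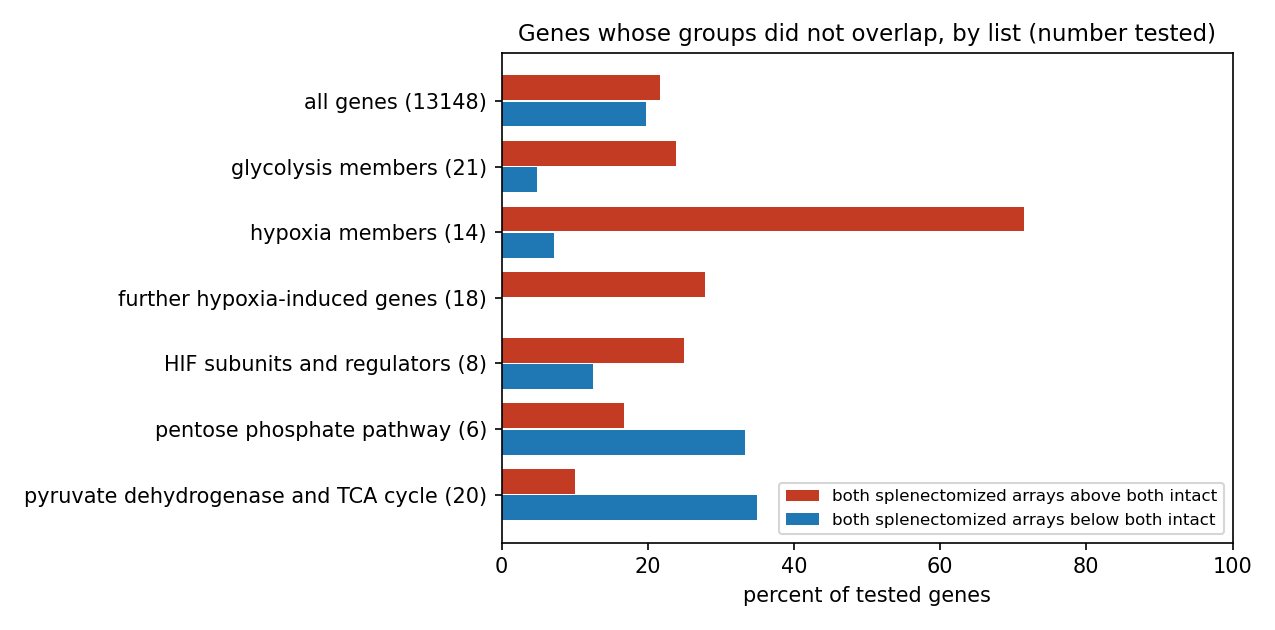
Percent of the tested genes of each list for which both splenectomized arrays lie above (red) or below (blue) both intact arrays, with the number tested in brackets. The hypoxia members reach 71.4% above, against 21.7% of all genes and 27.8% of the 18 further hypoxia-induced genes. Pyruvate dehydrogenase and citric acid cycle genes have 35% below.

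Of the members, 20 had more than 1 detected probe set, and in 14 of these all pointed the same way. All 8 hypoxia members with several probe sets agreed in direction among themselves, against 6 of 12 glycolysis members. The 8 include Vegfa, whose second probe set was detected only on the splenectomized arrays, where it was higher, so its agreement carries no weight. They also include Ndrg1, with 1 probe set at only 0.0047. The disagreements were in Slc2a3, Hk1, Tpi1, Pgk1, Slc16a1 and Pdk1, and unless a second probe set is named, values given for a gene are those of its brightest one.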

How the data were processed

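Total RNA of whole eyes was labelled with biotin by a 3'-IVT Express kit and measured on 4 Affymetrix arrays of 45101 probe sets, per the labels. The deposited values are linear signal intensities with Present or Absent calls, for which the submitters' processing notes name GCOS 1.4 and MAS5. The sources used here do not state a scaling target. The trimmed mean came to 150.001 on every array. MAS5 signals of dim probe sets scatter widely, so low values are less certain.

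Signals were raised to at least 0.1 and put on the log2 scale with no pseudocount. Of the probe sets, 34945 had 1 symbol, 932 several and 64 were controls. Splenectomized and intact mice were compared in limma 3.58.1 under R 4.3.3 with an intensity trend and no covariate, and p-values were adjusted by Benjamini-Hochberg over 13148 genes. An exact two-sided permutation test on 4 arrays cannot go below 0.333, so lists are described by counts and medians. The fit was tested on simulated data. Alternatives in scaling, filters, variance model, pairing, probe sets and left-out arrays were run. The pairs Hk2 and Hk1, Ldha and Ldhb, Aldoa and Aldoc, Slc16a3 and Slc16a1, Slc2a1 and Slc2a3, and Pfkfb4 and Pfkfb3 were compared within arrays, while Eno1 against Eno2 could not be. Erythroid markers had 0 genes tested. Coordinates and promoters are from RefSeq on GRCm38.p6. By rule all tested members are named, with every array's signal for those with an unadjusted p under 0.05, the 6 largest differences and the isoform pairs, and of other lists at most the 3 genes with the largest differences. Genes named to spell out a count of 5 or fewer were picked after their values were seen. Members and lists were chosen with earlier results of these data known. Plots used matplotlib 3.10.9 (Python 3.11.15).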

Additional observations from a re-analysis of the deposited data

How the results depend on the processing

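With 2 arrays in each group, dim probe sets and those Absent on some arrays are the least certain. Apart from leaving out arrays, the settings tried were quantile normalization, median centring, adding 16 to each signal, stricter and looser detection, dropping the intensity trend, blocking by replicate number, averaging probe sets and dropping those that may cross-hybridize. These gave 313 values for single members, of which 183 were identical to the main value, many by construction. Of the 130 that differed, 123 kept their direction and 7 turned, and none of the 313 passed. Scaling moved the median of all genes from 0.05 to 0.0064 (quantile) and -0.0034 (centring). The median of the hypoxia members stayed between 0.29 and 0.35 and that of the glycolysis members between 0.09 and 0.16.

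The values that turned were 0.62 for Slc2a3 and 0.15 for Slc16a1 with the mean of probe sets, where dim probe sets enter (2 for Slc2a3 and 1 for Slc16a1), -0.0066 for Pgk1 with the mean, -0.077 for Pgk1 and -0.041 for Tpi1 without cross-hybridizing probe sets, -0.036 for Tpi1 under centring and 0.00083 for Egln1 under quantile normalization. Under quantile normalization 1 gene of all passed, no member among them. There, 4 of the 21 glycolysis members were lower without overlap, near the share of all genes, 21.9%. Under centring 1 glycolysis member was higher and 0 hypoxia members were lower without overlap, and with the mean of probe sets these lower counts were 0 for glycolysis and 3 for hypoxia. Under these settings and without cross-hybridizing probe sets, 20.1% to 21.7% of all genes were higher and 19.7% to 21.9% lower without overlap. Hypoxia members higher without overlap were 9 rather than 10 under quantile normalization and under centring, and 8 with the mean of probe sets and without cross-hybridizing ones. The cause was not tested. Eno1 against Eno2 was not run, since Eno1 was not measured.

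Same-numbered arrays deviated oppositely across genes (correlation -0.443). Any difference between arrays enters this value, so it cannot decide whether the numbers pair them, and the labels do not say. With the replicate block 0 genes passed, and with crossed numbers as the block, chosen after seeing the data, 99 genes and 0 members passed.

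Leaving out each array in turn gave 0 to 2830 genes past the threshold. These fits take the spread of the lone array from the other group. Without intact replicate 2 it was 2830 genes (21.5%) and 8 of 35 members (22.9%, near the share of all genes: Slc2a1, Aldoc, Eno2, Ldhb, Slc16a1, Hif1a, Vegfa and Ddit4), and without intact replicate 1 it was 271 genes and 0 members. Glycolysis members without overlap were 6 to 11 higher and 3 to 6 lower, and hypoxia members 10 to 12 higher and 1 to 2 lower, where 27.9% to 49.8% of all genes were higher and 27.9% to 37.8% lower. Members that turned ranged from -0.14 to 0.0067 for Pfkp, -0.11 to 0.40 for Pfkm, -0.19 to 1.60 for Aldoc, -0.10 to 0.13 for Tpi1, -0.030 to 0.22 for Pgk1, -0.19 to 0.029 for Pgam1, -0.51 to 1.78 for Eno2, -0.10 to 0.85 for Ldhb, -0.91 to 0.10 for Slc16a3, -0.025 to 0.15 for Pdk1, -0.33 to 1.03 for Car9, -0.15 to 0.062 for Egln1 and -0.10 to 0.0094 for Mxi1. The medians ran from 0.03 to 0.17 for glycolysis and from 0.22 to 0.47 for hypoxia members.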
